A study of Mus musculus with 3 samples.

Results

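The 10 genes described here build, feed, cut, cross-link or anchor the actin filaments of the cell: Actb, Actg1, Cfl1, Pfn1, Tmsb4x, Tmsb10, Coro1a, Lcp1, Marcks and Marcksl1. They were chosen by symbol, and each matched exactly 1 of the 55536 genes of the deposited gene tables. The study sequenced total cytosolic RNA, depleted of ribosomal RNA, of macrophages grown from the marrow of C57BL/6J mice. All cells had received lipid A, the part of lipopolysaccharide that the receptor TLR4 recognises, at 100 ng/ml and for 120 min. The labels hold 1 group of 3 libraries (replicates 1, 2 and 3) with no untreated cells, so the values are levels and no response to lipid A was measured. Age and sex were not collected, and the labels give all 3 libraries the same donor identifier without naming separate animals. Each SD and p therefore covers differences between these samples alone, and these may be technical.

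Actin monomers assemble into filaments at the fast-growing end, and the thymosins Tmsb4x and Tmsb10 hold monomers in reserve while profilin (Pfn1) hands them to growing ends. Cofilin (Cfl1) severs old filaments, coronin 1A (Coro1a) acts on the same networks in blood cells, and L-plastin (Lcp1) bundles filaments. The MARCKS proteins sit at the inner face of the plasma membrane, bind actin and phosphoinositides and leave the membrane when protein kinase C phosphorylates them, and Marcksl1 is known in macrophages as an RNA raised by lipopolysaccharide.

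The libraries held 31152786, 114031592 and 59693298 expected counts in replicates 1, 2 and 3, and 83.2% to 84.5% of them fell in nuclear-encoded protein-coding genes. By TPM, a level per length that sums to the same total in every table, these genes held only 21.1% to 23.5%. Macrophage markers were detected, at a TPM of at least 1 in every library, for 10 of 10 genes, led by Lyz2 (4039 ± 316 TPM) and Cd68 (545 ± 20.5 TPM). Stromal and muscle markers were detected for 0 of 10, with Tagln at 0.187 TPM and Pdgfrb at 0.0433 TPM on average, Des at 0, 0 and 1 counts and a summed level of 0.22 to 0.36 TPM. Among T and B cell markers 2 of 10 were detected, Cd4 (18.2 ± 0.666 TPM) and Ighm (2.45 ± 0.346 TPM), with Cd3d at 0 counts. Among megakaryocyte and neutrophil markers 1 of 10 was detected, Ngp (2.21 ± 0.495 TPM), followed by Ppbp at 0.59 TPM, with Ly6g at 0 counts (SD, n = 3 throughout). In bulk RNA, fewer cells of a type and less RNA per cell cannot be told apart.

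The pairs of near relatives differ at only some of their coding bases, and these bases are shown first. Actb and Actg1 code for the cytoplasmic beta and gamma actins and were identical at 997 of 1125 coding bases (88.6%). Their first 60 coding bases are given from the GENCODE M21 transcripts on GRCm38, 5′ to 3′ on the coding strand, with the 9 bases that differ in capitals.
Actb: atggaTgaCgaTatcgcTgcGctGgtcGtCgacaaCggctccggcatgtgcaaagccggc
Actg1: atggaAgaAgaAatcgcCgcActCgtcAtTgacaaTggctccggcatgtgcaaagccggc
The coding bases of the thymosins are short enough to be shown whole, at 132 bases each, again with the differing bases in capitals. Here 92 of 132 bases were identical (69.7%).
Tmsb4x: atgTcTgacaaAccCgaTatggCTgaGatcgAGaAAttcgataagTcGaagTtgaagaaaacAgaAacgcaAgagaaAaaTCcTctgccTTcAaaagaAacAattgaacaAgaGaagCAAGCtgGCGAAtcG
Tmsb10: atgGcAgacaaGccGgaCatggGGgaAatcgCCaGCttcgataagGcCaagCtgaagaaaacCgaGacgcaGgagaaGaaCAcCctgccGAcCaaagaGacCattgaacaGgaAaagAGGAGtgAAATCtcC
Marcks and Marcksl1, the third pair, aligned over 598 bases, of which 68.9% were identical.

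The 10 genes together held 2.75%, 2.64% and 2.87% of the TPM of nuclear-encoded protein-coding genes in replicates 1, 2 and 3 (2.76% ± 0.116, SD, n = 3). The 2 actins held 1.14% ± 0.104 and the 2 thymosins 0.952% ± 0.0237. Actb, Actg1 and Tmsb4x alone made up 71.2% ± 1.65 of the summed TPM of the 10. All 10 were detected, against 37.6% of 22015 nuclear-encoded protein-coding genes, and 9 of 10 had a mean of at least 100 TPM, against 1.62% of them. The median of the 10 was 314 TPM, and that of the 8281 detected protein-coding genes was 6.84 TPM.

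The monomer and its reserve led the order. Tmsb4x (chrX:167207093-167209315, minus strand, mm10) stood at 2044, 1638 and 1837 TPM in replicates 1, 2 and 3, with a mean of 1839.8 ± 203. Actb (chr5:142903115-142906754, minus strand) stood at 1881, 1586 and 1975 TPM, with a mean of 1814 ± 203. Their ranges overlapped, Tmsb4x was the higher in 2 of 3 libraries, and by mean TPM they ranked 9 and 10 among all nuclear-encoded protein-coding genes. Actg1 (chr11:120345690-120348542, minus strand) followed at 703, 642 and 788 TPM and rank 29, below Actb in 3 of 3 libraries without overlap.

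Marcksl1 (chr4:129513581-129515985, plus strand) was the fourth, at 425, 429 and 357 TPM. It lay below Actg1 in 3 of 3 libraries without overlap. Pfn1 (chr11:70651850-70654644, minus strand), the profilin of most tissues, was at 361, 318 and 376 TPM and overlapped Marcksl1.

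Then came 3 genes whose neighbouring ranges all overlapped. Tmsb10 (chr6:72957347-72958748, minus strand) was at 252, 324 and 252 TPM, overlapped Pfn1 and lay below it in 2 of 3 libraries. Lcp1 (chr14:75131101-75230842, plus strand), the plastin of blood cells, was at 276, 249 and 281 TPM. Cfl1 (chr19:5490455-5495201, plus strand), the cofilin of non-muscle cells, was at 285, 209 and 245 TPM. Their order among themselves is therefore not resolved by these libraries.

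Marcks (chr10:37133375-37138920, minus strand) was at 208, 143 and 178 TPM, below Cfl1 in 3 of 3 libraries by a log2 ratio of 0.49 ± 0.05, and the highest Marcks library (208.4 TPM) lay just under the lowest Cfl1 library (208.8 TPM). Coro1a (chr7:126699773-126707787, minus strand) was the lowest, at 34.8, 27.6 and 34.9 TPM and rank 1114, below Marcks by 2.44 ± 0.13 on the log2 scale. Coro1a still rested on 2652, 8793 and 5449 expected counts. Across the 10 genes the deposited TPM was lowest in replicate 2 for 8 of 10, the exceptions being Tmsb10 and Marcksl1, as it was for 63.4% of detected protein-coding genes.

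**Figure D1:**
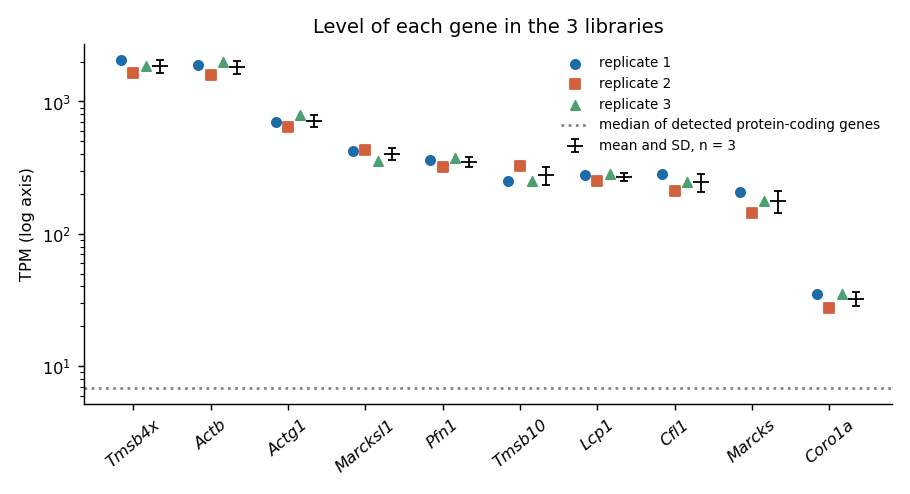
TPM of each of the 10 genes (log axis) in replicates 1, 2 and 3, with the mean and SD (n = 3) beside them, ordered by mean. Tmsb4x and Actb lie together near the top, Coro1a lies at 27.6 to 34.9 TPM, and the dotted line marks the median of detected protein-coding genes at 6.84 TPM.

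Within each pair 1 gene was higher in every library. Actb exceeded Actg1 by 1.42, 1.30 and 1.33 on the log2 scale of TPM in replicates 1, 2 and 3 (1.35 ± 0.06, SD, n = 3), which is a 2.55-fold difference. Tmsb4x exceeded Tmsb10 by 3.02, 2.34 and 2.87 (2.74 ± 0.36), a 6.69-fold difference on average, but 8.13-fold in replicate 1 and 5.06-fold in replicate 2. Marcks lay below Marcksl1 with log2 ratios of -1.03, -1.58 and -1.004 (-1.20 ± 0.33). In the latter 2 pairs replicates 1 and 3 lay close together and replicate 2 lay apart, whereas the actin ratio varied little. An exact sign-flip test over 3 libraries cannot go below p = 0.25, so no p is given for these ratios.

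The same ratios were taken against family relatives outside the 10, as differences of log2(TPM + 1), which understates the gap to low genes. Cfl1 exceeded destrin (Dstn, 34.2 ± 2.55 TPM), the other non-muscle member of its family, by 2.80 ± 0.12. It exceeded the muscle cofilin Cfl2 (4.71 ± 1.46 TPM) by 5.46 ± 0.16. Pfn1 exceeded Pfn2 (0.733 ± 0.0839 TPM), the profilin best known from neurons, by 7.67 ± 0.09. Pfn1 and Cfl1 were thus above these relatives in 3 of 3 libraries.

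Lcp1 exceeded the other plastins by wide margins. The difference was 6.98 ± 0.07 against Pls3 (1.14 ± 0.0854 TPM), the plastin of solid tissues. Pls1 had 8 counts over the 3 libraries, and per length Lcp1 was 36302-fold higher with an exact 95% Poisson interval of 18424 to 84084. Actb exceeded Acta2, smooth muscle actin, by 10.74 ± 0.16, and Acta2 had 6, 19 and 13 counts. Of the 5 other actin genes 0 were detected, and Actc1, Actg2 and Actbl2 had 0 counts in every library, which allows up to 0.0963, 0.0263 and 0.0503 CPM (counts scaled to the library total) in replicates 1, 2 and 3.

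Coro1a was the only one of the 5 members set against outside relatives that was lower than one of them. It lay below Coro1b (44.2, 44.9 and 45.7 TPM), a coronin of many tissues, in every library, by a log2 difference of -0.47 ± 0.19. It also lay below Coro1c (39.1, 37.3 and 40.9 TPM), another broadly expressed coronin, by -0.27 ± 0.14. It exceeded Coro7 (12.3 ± 0.966 TPM), a coronin of the Golgi, by 1.32 ± 0.21. Coro1a, known as the coronin of blood cells, was therefore not the highest coronin RNA by these values. Its locus overlaps another gene, as described below, and any effect of this on its level was not tested.

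**Figure D2:**
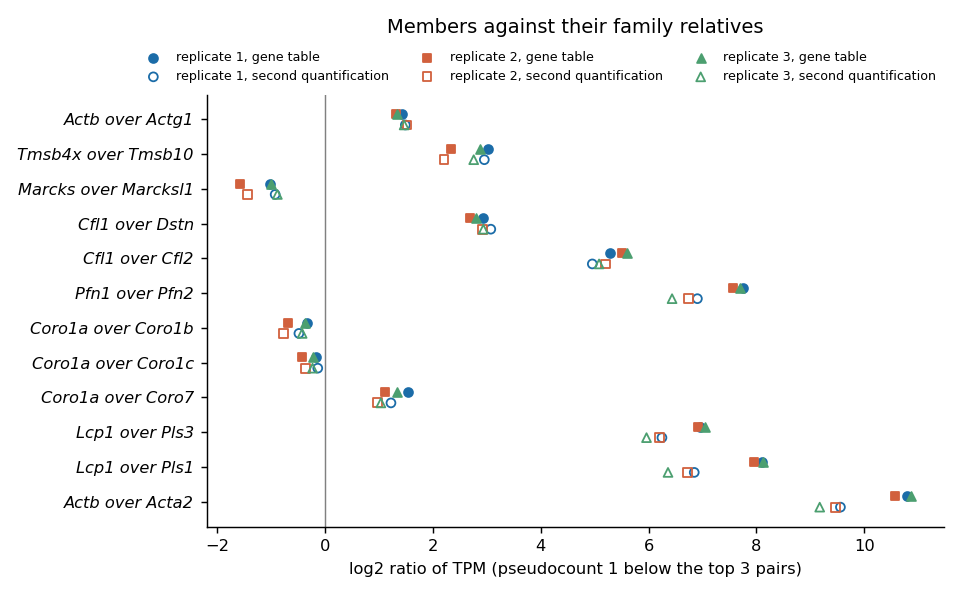
Log2 ratio of TPM of each member over a relative, with 1 symbol per replicate, filled for the gene tables and open for the second quantification; rows below the top 3 pairs carry a pseudocount of 1 TPM. Replicate 2 stands apart for Tmsb4x over Tmsb10 (2.34) and Marcks over Marcksl1 (-1.58), and only Marcks and Coro1a fall left of 0.

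The authors also deposited a transcript table made from the reads by another method, whose TPM was summed per gene and is called the second quantification. Over nuclear-encoded protein-coding genes it gave the 10 genes 2.74% ± 0.0939 of TPM. It gave 1.49 ± 0.03 for Actb over Actg1, 2.64 ± 0.39 for Tmsb4x over Tmsb10 and -1.09 ± 0.31 for Marcks over Marcksl1, so every direction held in both.

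The quantifications differed within Actg1. In the first, the 6-exon transcript Actg1-202 held 55.3%, 56.9% and 59.0% of the gene's TPM in replicates 1, 2 and 3, and Actg1-204, which has 5 exons and the same 1125 coding bases, held 43.4%, 42.3% and 39.8%. In the second, Actg1-202 held 81.8%, 89.9% and 95.4% and Actg1-204 held 16.9%, 9.06% and 3.37%. The 2 ranges of Actg1-202 did not overlap, so the split of Actg1 between these transcripts is not settled by the files.

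Lcp1 and Cfl1 also used more than 1 transcript. Lcp1-209 held 56.1% ± 2.40 and Lcp1-206 held 41.1% ± 2.93 of Lcp1, both with 1881 coding bases, and the second quantification gave 63.6% and 29.5%. Cfl1-201 held 74.7% ± 5.03 and Cfl1-202, with a shorter coding stretch of 498 bases, held 23.8% ± 4.07, against 80.0% and 14.5% in the second quantification. Cfl1-204 reached 10.3% only in replicate 2 of the second quantification.

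The other genes were carried by 1 transcript each. Actb-201 held 99.0% of Actb, Tmsb4x-201 99.0%, Pfn1-201 99.4%, Tmsb10-203 97.8% and Coro1a-201 92.6%, and Marcks and Marcksl1 have a single annotated transcript. In the second quantification Actb-201 was at 87.5% in replicate 2, where Actb-202, a short annotated transcript of 536 bases, took 10.4%. Transcripts not annotated as coding took at most 3.70% of any member in the first quantification, the highest being Coro1a in replicate 1, for which the second quantification gave 6.36%.

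**Figure D3:**
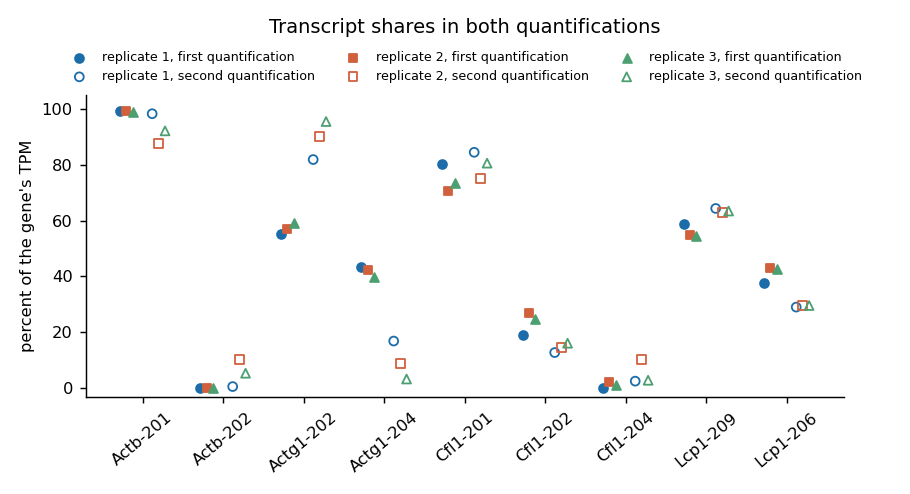
Share of the TPM of Actb, Actg1, Cfl1 and Lcp1 in each named transcript (percent), by replicate, with filled symbols for the first quantification and open symbols for the second. For Actg1 the first places 55.3% to 59.0% and the second 81.8% to 95.4% in Actg1-202.

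Near-identical copies bear on Actg1 most. Of the 1853 windows of 100 bases in Actg1-202, 51.1% also occurred in transcripts of other genes, compared with 1.10% for Actb-201 and 27.8% for Tmsb10-203. The closest expressed copy was the processed pseudogene Gm12715, 99.6% identical over 1128 bases and listed at 12.0, 14.0 and 15.9 TPM. All pseudogene copies of Actg1 together held 2.00% of the sum of Actg1 and those copies. For Tmsb10 the copy was Gm9844 (99.1% identical over 466 bases, 0.82 TPM on average), and for Actb it was Gm15725 (91.8%, 4.40 TPM). Reads of Actg1 and its copies may have been exchanged in the authors' estimate, and adding the copies back moved the log2 ratio of Actb over Actg1 from 1.35 to 1.32.

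Overlapping genes touch 4 of the 10. Actg1 overlaps Gm23419 and Mir6935 on its own strand, both listed at 0 TPM. Coro1a shares its locus with Bola2 on the opposite strand, which was at 14.0, 20.0 and 23.8 TPM, beside 27.6 to 34.9 TPM for Coro1a. The strand setting is not given in the sources used here, so the level of Coro1a is less certain than that of the others. Cfl1 overlaps Snx32 (1.68 TPM) and Lcp1 overlaps Gm15628 and Gm15629 (at most 0.45 TPM in any library), levels far below their own.

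To compare libraries, TPM was rescaled so that nuclear-encoded protein-coding genes had the same sum in each library, since the share of other RNA differed. On this scale Tmsb10 was at 1071, 1536 and 1144 in replicates 1, 2 and 3. Marcksl1 was at 1808, 2034 and 1622, and Marcks was at 887, 679.9 and 809. So replicate 2 had the highest Tmsb10 and Marcksl1 and the lowest Marcks of the 3.

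Actb was at 8012, 7520.3 and 8967 on the rescaled scale, and Actg1 was at 2994, 3044 and 3578. Both actins were thus highest in replicate 3. Pfn1 at 1537, 1507 and 1705 and Lcp1 at 1174, 1179 and 1276 were also highest there, as was Coro1a at 148, 131 and 158. Tmsb4x at 8703, 7767 and 8341 and Cfl1 at 1215, 990.0 and 1114.5 were highest in replicate 1.

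In all, 5 of 10 genes were highest in replicate 3 (35.0% of detected protein-coding genes were), 3 in replicate 1 (background 41.2%) and 2 in replicate 2 (background 23.8%). Replicate 2 was lowest for 6 of 10 (background 40.2%). The second quantification named the same highest library for 10 of 10 and the same lowest for 9 of 10. The ratio of the highest to the lowest library exceeded 1.2 for 5 of 10, against 40.5% of detected protein-coding genes. It was 1.43 for Tmsb10, 1.31 for Marcks and 1.09 for Lcp1. The coefficient of variation ranged from 4.76% for Lcp1 to 20.0% for Tmsb10, and 3 of 10 were under the median of 8.12% of detected protein-coding genes. These backgrounds cover all detected protein-coding genes, whose median level was 6.84 TPM against 314 TPM for the 10. No background at the level of the 10 is given.

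Replicate 2, with the highest Tmsb10 and Marcksl1 and the lowest Marcks on this scale, also had the lowest level of the nuclear RNA Malat1 (178 TPM, against 741 and 812 in replicates 1 and 3), the smallest mitochondrial share of counts (0.464%, against 1.98% and 1.64%) and the greatest depth. The part of these differences in the levels of the 3 genes was not tested. The effective length by which TPM divides moved as well, and for the 570-base transcript of Tmsb10 the gene value was 338, 358 and 345 bases.

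**Figure D4:**
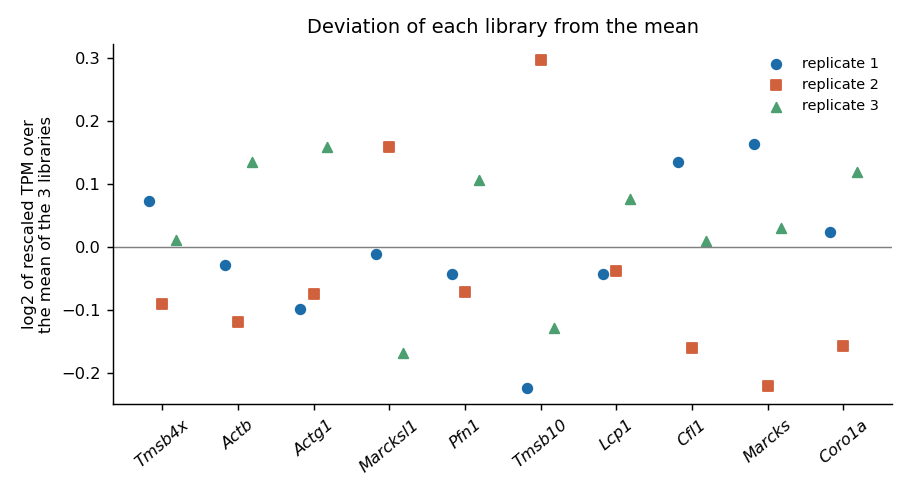
Log2 of the rescaled TPM of each gene in replicates 1, 2 and 3 over its mean of the 3 libraries, with genes ordered by mean TPM. Replicate 2 is highest for Tmsb10 (1536, mean 1250.4) and Marcksl1 and lowest for Marcks and Cfl1, while replicate 3 is highest for Actb, Actg1, Pfn1, Lcp1 and Coro1a.

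Whether the libraries differed beyond counting error was asked with a Poisson dispersion test. It is a chi-square on rounded expected counts, has 2 degrees of freedom here and used library sizes scaled by TMM. With Benjamini-Hochberg adjustment over 14037 genes at 0.05, 10 of 10 members passed. So did 62.1% of all genes tested, and 94.0% of the 2056 genes with at least the mean count of the lowest member, so passing does not set the 10 apart. Within nuclear-encoded protein-coding genes scaled among themselves the share was 61.5%, and 10 of 10 passed again. At a given relative difference the chi-square grows with counts, so its order is not one of relative spread. Over all genes the chi-square was largest for Actb at 3862, ranked 65 of those tested (mean of 390770 counts, coefficient of variation 9.01%). Marcksl1 at 3403, Actg1 at 2015, Marcks at 1730.4 and Tmsb10 at 1605 followed, the last with a mean of 13762 counts and a coefficient of variation of 20.0%.

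The counts behind these values show which library differed. For Actb the observed counts were 0.962, 0.963 and 1.09 times those expected from library size in replicates 1, 2 and 3, and without replicate 3 the other 2 libraries did not differ detectably (dispersion test, adjusted p = 0.847, chi-square 0.0729, against 1841 and 3526 when either other library was left out). For Tmsb10 the ratios were 0.736, 1.18 and 0.811, so replicate 2 stood above both others. For Marcksl1 they were 0.923, 1.11 and 0.839, and for Marcks 1.15, 0.929 and 1.05. Marcks and Marcksl1, a pair with related roles at the membrane, thus lay on opposite sides of the expected counts in every library.

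Tmsb4x had the smallest chi-square at 30.4 (adjusted p = 8.24e-07, dispersion test), with ratios of 1.02, 0.995 and 0.999. Within nuclear-encoded protein-coding genes scaled among themselves its chi-square was 96.1, and Coro1a had the smallest at 80.6. Tmsb4x no longer passed without replicate 1 (dispersion test, adjusted p = 0.332, against 1.88e-07 to 0.000187 when either other library was left out). Cfl1 did not pass without replicate 2 (dispersion test, adjusted p = 0.146, against 6.6e-13 to 6.75e-11). Coro1a did not pass without replicate 3 (dispersion test, adjusted p = 0.0659, against 6.4e-15 to 0.000469). The other 6 genes passed whichever library was left out.

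The gene whose TPM was most like that of Actb in all 3 libraries was Tmsb4x, with a largest difference of 0.12 in log2(TPM + 1), followed by the secreted selenium carrier Selenop (0.31) and the membrane glycoprotein Gpnmb (0.36). For Marcksl1 the closest were the ribosomal protein genes Fau (0.10) and Rpl10 (0.15) and the chaperone Hspa8 (0.16). Likeness here is over 3 libraries of 1 condition and rests mainly on a similar level.

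The 10 genes were short. Of the main transcripts, 8 of 10 were below the median length of 2690.5 bases of detected protein-coding genes, 8 of 10 below the median coding length of 1239 bases and 8 of 10 below the median of 9 exons. Lcp1, with 17 exons and 1881 coding bases, and Coro1a, with 11 exons and 1383 coding bases, were the 2 above on coding length. Marcks was peculiar in its base composition, with 75.6% G and C in its coding bases but 45.1% over its whole 4048-base transcript. Tmsb4x had the lowest coding share of G and C at 40.9%, and the expected counts were not corrected here for either.

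Serum response factor (Srf) and its coactivators drive many actin genes through a motif called the CArG box, so the promoter windows of RefSeq (GRCm38.p6, 250 bases before to 50 after the start site, both strands) were searched for it. The table held 8 of the 10 genes, without Actb and Marcks. Actg1 alone held a CArG box, as did 1.81% of the 27025 genes in the table. It begins 90 bases before the RefSeq start site, and the GENCODE M21 start of the gene lies nearer to it. The box is given in capitals within 60 bases at chr11:120348551-120348610, minus strand, 5′ to 3′ on the gene's strand.
Actg1: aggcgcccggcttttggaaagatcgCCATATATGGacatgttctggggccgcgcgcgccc
The motif GGGCGG was found in 8 of 8 and in 38.2% of all genes. All genes here are the 27025 searched, detected or not, and no share among detected genes was taken. TATAAA, the kappaB motif and TGANTCA were found in 0 of 8, against 15.7%, 9.55% and 8.97% of all genes, and a match or its absence says nothing about binding. Srf itself was at 6.57, 4.98 and 8.52 TPM, and the SRF list, detected for 6 of 6, was led by Elk4 (14.3 ± 1.17 TPM), Mrtfa (11.6 ± 2.51 TPM) and Mrtfb (7.98 ± 0.420 TPM), with Elk1 the lowest (3.14 ± 0.382 TPM); Srf is named outside the rule because of this motif.

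The 10 genes act among many others, and 127 further genes in 14 lists were measured beside them. Of these, 97 were detected and 6 had 0 counts in every library. Their detected median was 26.6 TPM, 45 of 127 exceeded Coro1a, and 0 exceeded the median of the 10. In the dispersion test 90 of the 112 tested passed (80.4%). That share depends on depth, since 62.1% of all genes tested and 94.0% of those with at least the counts of the lowest member passed, and no share at the depth of the listed genes was taken.

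The list of monomer binding held 8 further genes, of which 4 were detected. They were led by Cotl1 (130.1 ± 10.8 TPM), a relative of cofilin that was listed here although it binds filaments. Cap1 (91.4 ± 2.83 TPM), which recycles cofilin-bound monomers, and Twf1 (23.9 ± 0.592 TPM) followed, and Pfn3 was at 0 counts. In the cofilin list 9 of 10 were detected, led by the cofilin cofactor Wdr1 (72.4 ± 8.08 TPM), Dstn and Gmfb (24.1 ± 2.48 TPM), and the cofilin kinase Limk2 was the lowest (0.62 ± 0.197 TPM). Each of these lay below Cfl1 and Pfn1.

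Branched filaments are nucleated by the Arp2/3 complex, and 9 of its 10 listed genes were detected. The list had a median of 109 TPM. Actr3 (193 ± 25.6 TPM), Arpc2 (164 ± 12.1 TPM) and Arpc3 (153 ± 11.9 TPM) led, and Actr3b was at 0.0833 TPM. Of its activators, the WASP and WAVE list, 12 of 15 were detected, led by the blood-cell WAVE subunit Nckap1l (88.9 ± 4.90 TPM), Abi1 (51.7 ± 6.40 TPM) and Cyfip1 (38.2 ± 3.53 TPM), with Wasf1 at 0, 0 and 1 counts. Formins, which make unbranched filaments, were lower, with 8 of 10 detected, Diaph1 at 20.3 ± 1.16 TPM, Diaph2 at 9.38 ± 1.31 TPM, Fmnl1 at 7.28 ± 0.162 TPM and Daam2 at 0.0367 TPM.

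Filament ends are capped by the capping proteins, of which 6 of 9 were detected. Capg (156 ± 6.85 TPM), Capzb (96.9 ± 3.83 TPM) and Capza2 (84.8 ± 5.47 TPM) led, and Avil had 1, 3 and 1 counts. In the bundling list 10 of 13 were detected, led by Tagln2 (129.5 ± 8.71 TPM), Hcls1 (51.3 ± 0.859 TPM) and Lasp1 (48.8 ± 1.29 TPM), and all lay below Lcp1, with Flnc at 0, 5 and 4 counts. Of the coronins outside the 10, 4 of 6 were detected, Coro1b, Coro1c and Coro2a (12.3 ± 0.394 TPM) among them, with Coro6 at 0 counts.

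The highest of the 127 was a myosin light chain, Myl6 (259.5 ± 22.2 TPM). Of the tropomyosin and myosin list 12 of 14 were detected, and Myl6 was followed by the tropomyosin Tpm3 (154 ± 6.23 TPM) and the motor Myo5a (141 ± 13.7 TPM), with Tpm2 at 0.0533 TPM. Membrane linkers were detected for 6 of 6, with moesin (Msn, 129.6 ± 9.75 TPM), talin (Tln1, 53.1 ± 5.83 TPM) and zyxin (Zyx, 40.8 ± 9.47 TPM) first and vinculin (Vcl, 7.82 ± 1.66 TPM) last.

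Of the protein kinase C genes, whose products phosphorylate the MARCKS proteins, 3 of 7 were detected. These were Prkcd (52.0 ± 6.85 TPM), Prkcb (15.6 ± 4.29 TPM) and Prkch (8.06 ± 1.10 TPM), all below Marcks and Marcksl1, and Prkcq was at 0.0167 TPM.

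**Figure D5:**
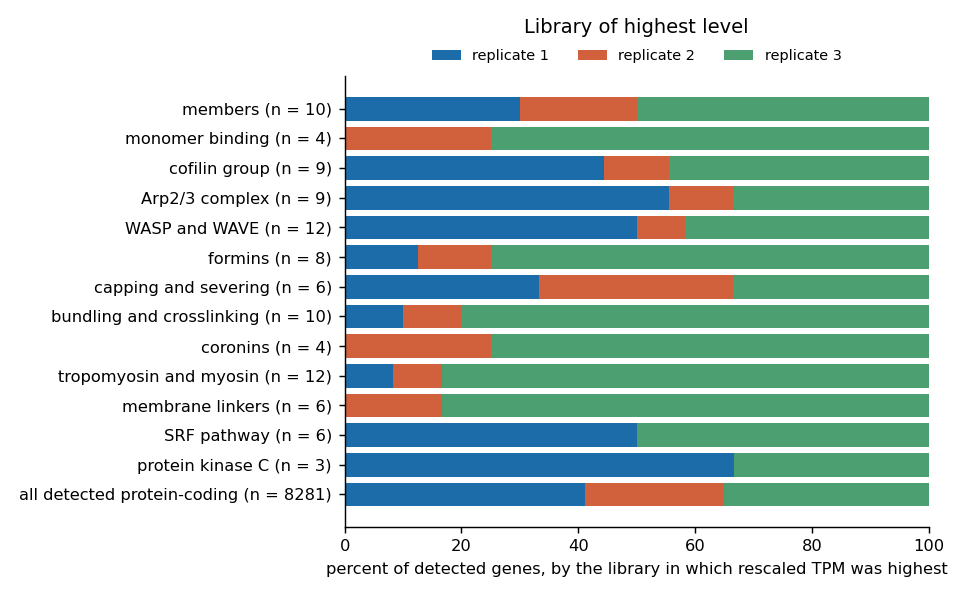
Percent of the detected genes of each list shown that had their highest rescaled TPM in replicate 1, 2 or 3, with the number detected in brackets. Of the 10 members, 5 were highest in replicate 3, beside 35.0% of all 8281 detected protein-coding genes in the bottom bar.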

How the data were processed

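Values come from 3 libraries of 1 group. The members and lists were chosen with earlier results of these data known. Per the file headers, the authors deposited expected counts, TPM and FPKM per gene and transcript, and estimated counts and TPM per transcript in a second table. The interval bounds of TPM (a signal with no fixed sum) and the effective lengths are also the authors'; they enter no test. The labels name mm10, and the listings deposited with the data name GENCODE M21; of the aligner, its version and the strand setting the sources used here say nothing. All 55536 gene identifiers matched GENCODE M21. Features that are no gene took 0.0937% to 0.655% of counts and were left out of the tests.

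Expected counts were rounded, scaled by TMM (edgeR 4.0.16, R 4.3.3) and tested for dispersion in genes with at least 10 counts on average, with scipy 1.17.1. The test was run on simulated counts with Poisson error and planted changes only. That checks the code and not how well these data meet the test. DESeq2 1.42.0 size factors were an alternative. Copies were found with blastn 2.17.0 (at least 200 bases at 90% identity). Named genes were the members, their relatives, the 3 highest and the lowest of each list, the 2 highest markers of each cell type, copies, transcripts with at least 10% of a gene and the 3 genes most like Actb and Marcksl1. One of the lists is not reported here on its own. Intervals and the limits set by a count of 0 cover counting error only.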

Additional observations from a re-analysis of the deposited data

How the results depend on the processing

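The share of the 10 genes was 0.612% of TPM over all features and 1.83% by expected counts. In the second quantification the log2 ratio of Actb over Actg1 was 1.49, Cfl1 over Dstn 2.98, Cfl1 over Cfl2 5.08, Pfn1 over Pfn2 6.69, Coro1a over Coro7 1.07, Lcp1 over Pls3 6.13, Lcp1 over Pls1 6.64 and Actb over Acta2 9.40. That table has lower TPM for coding genes. After rescaling it to the gene table, a choice made after seeing the data, Cfl1 over Dstn was 3.04, and the other 8 were within 1 SD of the gene table (Cfl1 over Cfl2 5.41, Pfn1 over Pfn2 7.66, Lcp1 over Pls3 6.95, Lcp1 over Pls1 8.01, Actb over Acta2 10.71). With a pseudocount of 0.1, Cfl1 over Cfl2 was 5.71, Pfn1 over Pfn2 8.72, Lcp1 over Pls3 7.76, Lcp1 over Pls1 11.25 and Actb over Acta2 13.49; all of these relatives but Cfl2 are at or near 1 TPM or below. Genes past the dispersion test numbered 8716 of all tested, 13288 in the second quantification and 5206 to 6900 with a library left out, lowest without replicate 2; members numbered 8 to 10 in all of these. Detected genes of the other actin cytoskeleton lists ranged from 77 to 102 over all thresholds and tables tried. The rescaled second quantification gave 97, also a choice made after seeing the data. Among these results and alternatives none turned its direction. No paired analysis was possible because there is 1 group.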

Other observations

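By rescaled TPM, 55 of the 97 detected genes of the other actin cytoskeleton lists (56.7%) were highest in replicate 3, 28 in replicate 1 and 14 in replicate 2, against 35.0% in replicate 3 for all detected protein-coding genes. In the bundling, the tropomyosin and myosin and the membrane linker lists together it was 23 of 28 (82.1%). The 97 genes had a median of 26.6 TPM, against 6.84 TPM for all detected protein-coding genes, and no background at their level was taken. The grouping of these 3 lists and the genes named next were chosen after their values were seen. Filamin A (Flna), which cross-links filaments, was at 42.4, 37.3 and 59.5 TPM in replicates 1, 2 and 3. Zyxin (Zyx), a protein of focal adhesions, was at 36.0, 34.7 and 51.8 TPM. On the rescaled scale Flna was at 181, 177 and 270 and Zyx at 153, 165 and 235. Both were highest in replicate 3 on either scale. The second quantification gave 22 of 28 (78.6%) for the 3 lists and 60 of 97 (61.9%) for all listed genes, beside 39.7% of all detected protein-coding genes. Replicate 3 is 1 library, and no difference between these lists, the 10 genes described above and other genes was tested.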
